A study of Mus musculus with 8 samples.

Results

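The mitochondrial genome of the mouse carries 37 genes, of which 13 encode proteins, 2 encode ribosomal RNAs (rRNAs) and 22 encode transfer RNAs (tRNAs). They were taken here as every row of the count table whose Ensembl identifier matched a mouse symbol beginning with mt-. The table held 26062 gene rows, and 19 of them were mitochondrially encoded: 12 protein genes, both rRNA genes and 5 tRNA genes. The other 18, which are mt-Atp8 and 17 tRNA genes, were not analysed here. Of the 19 rows, 10 passed the filter on low counts and were tested, namely both rRNA genes, 7 protein genes and the tRNA gene mt-Tp.

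The libraries were made from microglia, macrophages that reside in brain tissue, taken from the lateral geniculate nucleus, the thalamic relay of the visual pathway. The mice were wild type male C57BL/6J animals 2 to 3 months old. They were left uninjured (2 libraries) or had both optic nerves crushed 1 day (3 libraries) or 3 days (3 libraries) earlier. In all 3 groups cells were collected with magnetic beads against CD11b, a surface protein that other myeloid cells also carry, and the RNA was linearly amplified before sequencing. The labels do not say how many animals stand behind a library, so the p-values rest on differences among libraries that may be technical replicates.

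Mitochondrial DNA is a small circle transcribed from both strands into long precursors. The heavy strand precursors hold both rRNAs and all protein genes except mt-Nd6, which lies on the other strand with some of the tRNAs, mt-Tp among them. Excision of the tRNAs releases the rRNAs and messenger RNAs between them. The proteins are core subunits of the respiratory chain and ATP synthase, whose other subunits are encoded in the nucleus, and parts of mitochondrial DNA have been copied into the nuclear genome during evolution.

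The first set of sequences shows letters that mitochondrially encoded genes share with nuclear ones. It gives bases 311 to 370 of mt-Atp6, which encodes a subunit of ATP synthase, and the aligned stretch of Gm10925, a gene annotated on chromosome 1. It also gives bases 847 to 906 of mt-Nd4, a complex I subunit, in which capitals mark the last bases shared with Gm28439, another gene on chromosome 1. Positions count from the 5′ end of each gene, and sequences are from the GENCODE M21 transcripts (GRCm38), a later build than the one used for mapping.
mt-Atp6: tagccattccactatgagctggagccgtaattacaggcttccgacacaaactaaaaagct
Gm10925: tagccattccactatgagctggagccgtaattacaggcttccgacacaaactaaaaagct
mt-Nd4: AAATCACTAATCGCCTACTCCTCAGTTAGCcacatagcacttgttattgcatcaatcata

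The 5 tRNA genes with a row are shown whole to give their size, from 66 to 75 bases.
mt-Tl1: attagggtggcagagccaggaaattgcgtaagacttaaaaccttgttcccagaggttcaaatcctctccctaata
mt-Tn: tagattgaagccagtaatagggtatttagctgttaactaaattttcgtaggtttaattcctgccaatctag
mt-Tc: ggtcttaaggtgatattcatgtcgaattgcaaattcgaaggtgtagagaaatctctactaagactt
mt-Tt: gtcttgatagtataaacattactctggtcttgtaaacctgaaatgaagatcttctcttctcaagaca
mt-Tp: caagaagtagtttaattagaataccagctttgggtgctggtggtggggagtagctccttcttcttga

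The protein genes fell into 2 sets by their counts, and the sets differed in how much sequence they share with other genes. Each gene was cut into all its 50-base windows, and a window counted as shared where another annotated transcript holds the same letters. In mt-Co2, mt-Atp6, mt-Co3, mt-Nd3 and mt-Nd4l, between 98.0% and 100% of the windows were shared. These 5 genes had 6, 5, 4, 25 and 20 counts over all 8 libraries, and no more than 6 in any library. The other 7 protein genes had between 76574 and 1788784 counts. In mt-Nd1, mt-Nd6 and mt-Cytb no window was shared, in mt-Nd5 7.61% and in mt-Nd2 8.19%.

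2 genes were partly shared. In mt-Co1, the catalytic core subunit of complex IV, 51.1% of windows were shared, and in mt-Nd4 62.2%, yet they had 1788784 and 594797 counts. A level per length of these genes therefore divides by bases that other genes also hold. 7 nuclear genes that match a mitochondrially encoded gene, which are not all that share windows with one, also had few counts. Gm10925 is identical to mt-Atp6 over 678 bases and had 195 counts over the 8 libraries. Gm28437, identical to mt-Co3 over 783 bases, had 24, and Gm28661, identical to mt-Co2 over 681 bases, had 181. Gm28438, identical to mt-Nd3 over 342 bases, had 46, and Gm10222, identical to mt-Nd4l over 294 bases, had 143. Gm28439 is identical to mt-Nd4 over 876 bases and had 190. Gm29216 aligned to mt-Co1 over 483 bases with a single difference, A1066T (base of mt-Co1, position in mt-Co1, base of Gm29216), and had 749. Within the identical stretches a read cannot be assigned by sequence, so the rows of mt-Co2, mt-Atp6, mt-Co3, mt-Nd3, mt-Nd4l and these nuclear genes are uncertain, while mt-Nd4 has 502 and mt-Co1 388 bases in no shared window. How the submitters treated reads with several matches is not given in the sources used here, and its part in these counts was not tested.

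**Figure D1:**
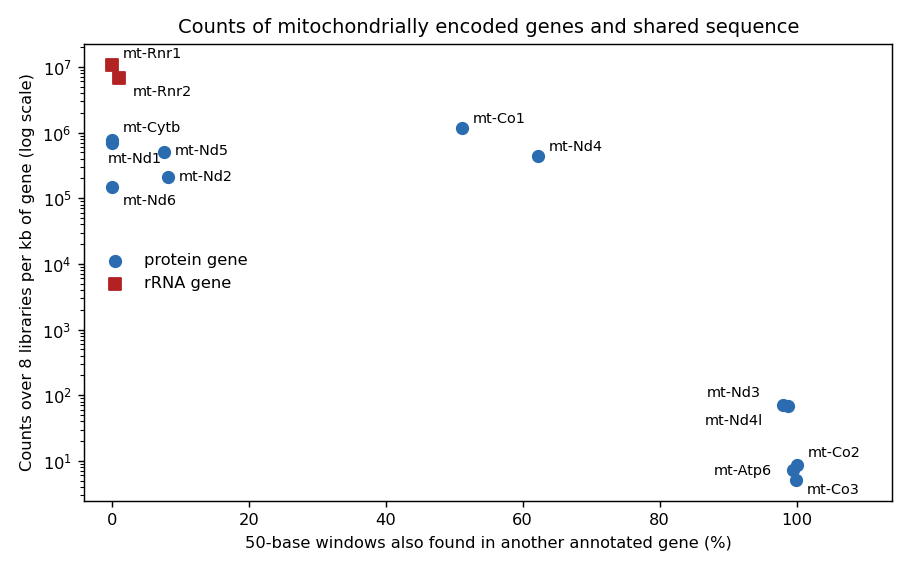
Counts over all 8 libraries per kb of gene (vertical, log scale) against the percentage of 50-base windows that another annotated gene also holds (horizontal), for the 12 protein genes (circles) and 2 rRNA genes (squares). The 5 genes with 98.0% or more shared windows had 4 to 25 counts each, while mt-Co1 and mt-Nd4, at 51.1% and 62.2%, lie among the genes with little shared sequence.

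Mitochondrially encoded genes took a large share of every library, most of it rRNA. The total ran from 12700098 to 17994861 counts a library. Their share was 22.5% and 21.3% in the uninjured libraries, 13.6%, 21.9% and 13.9% at 1 day, and 22.8%, 28.9% and 30.3% at 3 days. All 3 libraries at 3 days lay above all others, and at 1 day replicates 1 and 3 lay far below replicate 2. The rRNA genes took 19.0% and 18.1% without injury, 11.4%, 16.7% and 11.3% at 1 day, and 16.8%, 23.7% and 23.7% at 3 days. Each library at 1 day was below both uninjured libraries, and the libraries at 3 days lay on both sides of them. The protein genes took 3.53% and 3.28% without injury, 2.21%, 5.23% and 2.61% at 1 day, and 6.01%, 5.13% and 6.65% at 3 days. Every library at 3 days was above both uninjured libraries, and 1 day replicate 2 reached into the range at 3 days. Shares of the 5 tRNA genes stayed between 0.000427% and 0.00218%.

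No difference in these shares passed a test. Over the 21 comparisons of shares and ratios the lowest adjusted p was 0.35 (two-sided exact permutation tests, Benjamini-Hochberg adjustment), and the design cannot give an unadjusted p below 0.2 for 2 libraries against 3, or 0.1 for 3 against 3. For the protein genes at 3 days the mean was 5.93% ± 0.766 (SD, n = 3) against 3.40% ± 0.177 (n = 2) without injury (exact permutation p = 0.2). For the rRNA genes at 1 day it was 13.2% ± 3.06 (n = 3) against 18.5% ± 0.671 (n = 2, exact permutation p = 0.2).

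**Figure D2:**
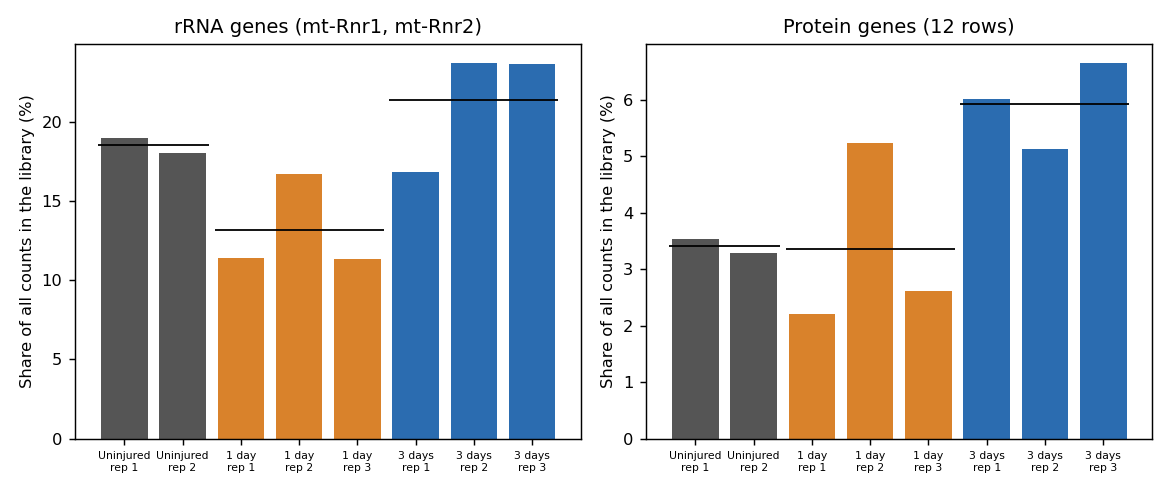
Share of all counts in each library (vertical, %) taken by the rRNA genes (left) and by the 12 protein genes (right), with a black line at each group's mean. Protein genes took 5.13% to 6.65% at 3 days against 3.28% and 3.53% without injury, and 1 day replicate 2, at 5.23%, stands above the other 2 libraries at 1 day.

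1 library and some markers of other cells need to be set beside every result that follows. Replicate 2 at 1 day was above replicates 1 and 3 in both rRNA genes and in all 7 tested protein genes. The part of that library is given by values with and without it. It was singled out by its values in these same genes, so calls made without it are not independent of that choice. All 12 microglial markers had counts in each library, as did all 12 endothelial markers. The microglial markers summed to 8837 and 11612 CPM without injury, 12448 to 15448 at 1 day and 8753 to 10332 at 3 days. CPM here and below are counts per 1000000 counts of the library size after TMM scaling. At 3 days edgeR called P2ry12, Itgam and Siglech lower than without injury, with 0.983% of all genes called lower. Against 1 day it called these, Tmem119 and Sall1 lower (5.75% of all genes). Neither comparison had a microglial marker called higher. Itgam alone was called higher at 1 day against uninjured (0.61% of all genes). The 8 markers of choroid plexus and ependyma summed to 5544 and 527 CPM without injury, 1.09, 56.6 and 1.23 at 1 day, and 3588, 624 and 1977 at 3 days. At 1 day 6, 3 and 5 of the 8 were at 0, so replicate 2 was again the highest of its group. The 12 endothelial markers summed to 1870 and 1728 CPM without injury, 942, 814 and 852 at 1 day, and 1529, 1517 and 1567 at 3 days, and none was at 0 in any library. The 10 mural markers summed to 1658 and 1423 CPM, then 979, 787 and 986, then 1296, 1158 and 1134. By edgeR, 8 endothelial markers and 1 mural marker were called lower at 1 day than without injury (1.16% of all genes). At 3 days against 1 day 9 and 4 were called higher (5.24% of all genes). None of either list was called the other way, or at 3 days against uninjured. Among other cells that can carry CD11b, the 8 monocyte markers summed to 662 and 694 CPM, then 371 to 388, then 404 to 586. Most of that list did not follow its sum. Of 6 tested monocyte markers 5 had values above 0 at 1 day against uninjured, and Fn1 alone was called lower (1.16% of all genes). At 3 days against 1 day 1 of the 6 had a value above 0, with Fn1 called higher and F13a1 lower (5.24% and 5.75% of all genes). The 8 border macrophage markers summed to 743 and 618 CPM, then 562 to 805, then 407 to 511. The 8 neutrophil markers summed to 49.2 and 38.4 CPM, then 71.7, 142 and 57.0, then 20.9 to 46.5. Within the uninjured group the choroid plexus level was 5544 in one library and 527 in the other, while the mitochondrially encoded share was 22.5% and 21.3%. The part of these markers in the results was not tested. In bulk RNA, fewer cells of a type and less RNA per cell cannot be told apart.

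**Figure D3:**
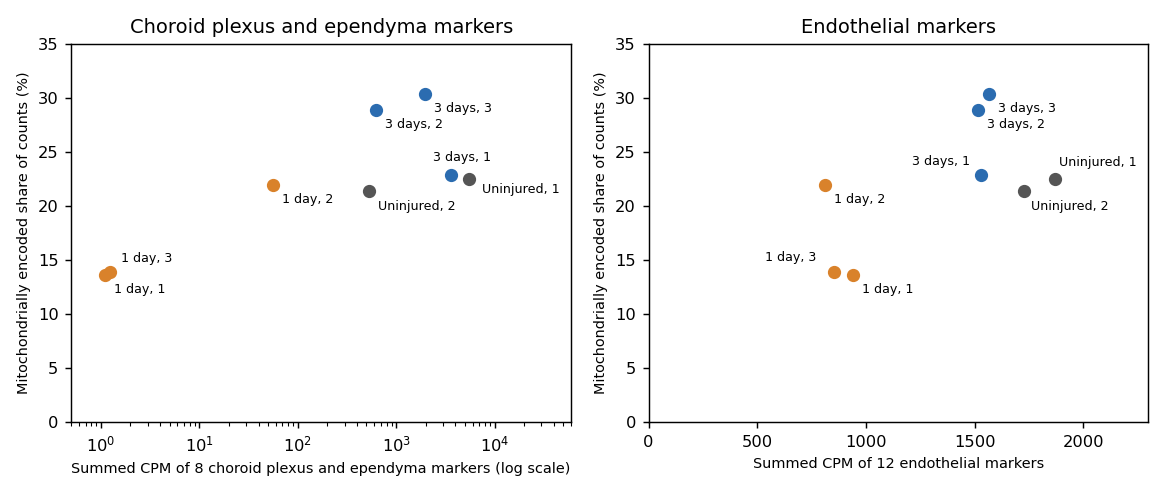
Mitochondrially encoded share of counts (vertical, %) against the summed level of 8 choroid plexus and ependyma markers (left, log scale) and of 12 endothelial markers (right), 1 point per library, coloured by group and labelled by replicate. The 2 libraries with the lowest share, 13.6% and 13.9%, have choroid plexus sums of 1.09 and 1.23 CPM. For 1 day replicate 2 the share is 21.9% and the choroid plexus sum 56.6 CPM. The endothelial sums are 814 to 942 CPM in the 3 libraries at 1 day and 1517 to 1870 CPM in the others. The part of these markers in the share was not tested.

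Per kb of gene, the rRNAs stood far above the messenger RNAs. In uninjured mice mt-Rnr1, the small subunit rRNA, was at 92571 ± 407 CPM per kb (SD, n = 2) and mt-Rnr2, the large subunit rRNA, at 53332 ± 4515. The protein genes followed in the order mt-Co1 (8168 ± 263), mt-Cytb (4451 ± 78.8), mt-Nd1 (3913 ± 202), mt-Nd5 (2727 ± 521), mt-Nd4 (2608 ± 207), mt-Nd2 (1347 ± 287) and mt-Nd6 (583 ± 91.6), and mt-Tp came last at 179.8 ± 131. Both uninjured libraries kept this order for each neighbouring pair except mt-Nd5 and mt-Nd4, whose order differed between them. At 1 day the libraries spread widely, but within each the order of neighbours held except for mt-Nd1 over mt-Cytb, mt-Nd4 over mt-Nd5 and mt-Nd6 over mt-Tp, each of which held in 2 of 3. At 3 days mt-Nd1 (10097 ± 1851 CPM per kb, n = 3) was above mt-Cytb (7883 ± 1366) in all 3 libraries, whereas without injury mt-Cytb was above mt-Nd1 in both. These levels use the whole length of each gene, and those of mt-Co1 and mt-Nd4 carry the limit given above.

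The small subunit rRNA mt-Rnr1 was at 88680 and 88130.1 CPM without injury. The libraries at 1 day had 52235, 89395 and 44700.1, and those at 3 days 75313, 130702 and 121293. Replicates 1 and 3 at 1 day were the lowest of all 8 libraries, and each pair of groups overlapped. The large subunit rRNA mt-Rnr2 was at 89421 and 79321 CPM without injury, at 60909.7, 94869 and 63366 at 1 day, and at 89485, 112705 and 141670 at 3 days. Here the libraries at 3 days lay above both uninjured ones, the lowest of them by a narrow margin, and overlapped with those at 1 day. The libraries at 3 days lay above both uninjured ones for 20.1% of all tested genes.

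Of the rRNA genes, mt-Rnr2 alone was called, and in the comparison of 3 days with 1 day alone. It rose by 0.65 on the log2 scale (SE 0.18, adjusted p = 0.0340, edgeR quasi-likelihood test with Benjamini-Hochberg adjustment over 17390 genes). In that comparison 11% of all tested genes were called, 5.24% as higher. The value of mt-Rnr1 was 0.81 (SE 0.25, edgeR adjusted p = 0.0529). Leaving out 1 library ended the call of mt-Rnr2 for 6 of the 8 libraries. Without 1 day replicate 2 both rRNA genes were called, at 1.16 for mt-Rnr1 and 0.88 for mt-Rnr2, where 13.7% of all genes were. At 1 day against uninjured the values were -0.51 (SE 0.27) for mt-Rnr1 and -0.21 (SE 0.20) for mt-Rnr2, with edgeR adjusted p of 0.429 and 0.724. Without 1 day replicate 2 mt-Rnr1 was called lower at -0.91 (edgeR adjusted p = 0.0490, with 1.05% of all genes called lower). At 3 days against uninjured neither was called, at 0.30 (SE 0.27) and 0.44 (SE 0.21).

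Among the protein genes, those of complex I, which takes electrons from NADH, included the widest differences. The first of them in the genome, mt-Nd1, was at 3608 and 3881 CPM without injury, at 3123, 8536 and 3508 at 1 day, and at 9438, 8015 and 11536 at 3 days. All libraries at 3 days lay above both uninjured ones, and 1 day replicate 2 lay among them. Its neighbour mt-Nd2 was at 1609 and 1188 CPM, then 852, 2439.8 and 887, then 2367, 2142 and 3295. The gene mt-Nd4 was at 3795 and 3392 CPM, then 2433, 7911 and 3354, then 6589, 5903 and 7549, and its 1 day replicate 2 was the highest of all 8 libraries. For mt-Nd5 the values were 5645 and 4301 CPM, then 3494, 9759 and 4341, then 12042, 9542 and 15142. In all 3 genes the libraries at 3 days were above both uninjured ones and overlapped with those at 1 day through replicate 2.

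The light strand gene mt-Nd6, also a complex I subunit, had the highest fold changes of the 7 in both comparisons of 3 days. At 1 day against uninjured its log2 fold change was -0.018, below that of mt-Nd1 at 0.43. It was at 336 and 269 CPM without injury, at 117, 599.8 and 179 at 1 day, and at 1208, 751 and 1985 at 3 days. Of the 7 tested protein genes, it was the one whose libraries at 3 days lay above all libraries at 1 day (as for 16.1% of all tested genes) as well as above both uninjured ones. It overlaps mt-Nd5 by 14 bases, and since the strand setting of the counting is not given in the sources used here, reads from mt-Nd6 and from the strand opposite to it cannot be told apart.

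Outside complex I, mt-Cytb encodes the cytochrome b of complex III. It was at 5156 and 5028 CPM without injury, at 3212, 9390.5 and 4385 at 1 day, and at 8788, 7583 and 10683 at 3 days. The complex IV gene mt-Co1 was at 12906 and 12333 CPM, then 8582, 19153 and 8204, then 18496, 18615 and 23622. In both genes the libraries at 3 days stood above the uninjured ones, and 1 day replicate 2 stood above at least 1 of them. The 5 rows with almost no counts give no level to compare, because a count of 0 allows up to 3 counts, which is 0.155 to 0.242 CPM in these libraries, counting error only.

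In the comparison of 3 days with uninjured all 7 tested protein genes had higher values and none was called by edgeR's quasi-likelihood test. Among all 17390 tested genes 3.47% were called, 2.49% as higher. In all 7 the libraries of the 2 groups did not overlap, as was so in that direction for 20.1% of all genes. The log2 fold changes were 2.12 (SE 0.85) for mt-Nd6, 1.37 (SE 0.41) for mt-Nd1, 1.30 (SE 0.42) for mt-Nd5, 0.90 (SE 0.46) for mt-Nd2, 0.89 (SE 0.43) for mt-Nd4, 0.82 (SE 0.39) for mt-Cytb and 0.68 (SE 0.31) for mt-Co1. Their median was 0.90, beside -0.0016 over all tested genes. The edgeR adjusted p ran from 0.124 for mt-Nd1 to 0.407 for mt-Nd2, and 3 of the 7 had an unadjusted p under 0.05. DESeq2 called 1 of the 7, with 6.29% of all genes called higher, and limma-voom 3, with 3.24%.

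These calls depended on a library of the group not compared, in a fit where all 8 libraries share an estimate of the spread, and the cause was not tested. Without 1 day replicate 2 all 7 protein genes were called higher at 3 days than without injury, from 0.63 for mt-Co1 to 2.07 for mt-Nd6 (edgeR adjusted p 0.000293 to 0.0234, with 3.48% of all genes called higher). The fold changes themselves moved little. Without 1 day replicate 1, 2 of the 7 were called, with 3.21% of all genes called higher. With 1 day replicate 3 or any single library at 3 days left out, 0 of the 7 were called. A fit of the uninjured and 3 day libraries alone called all 7, with 5.55% of all genes called higher. Scaling to the summed mitochondrially encoded protein counts, which sets the average of these genes to no change, lowered the median of all genes by 0.93 on the log2 scale. On that scale mt-Nd1, mt-Nd5 and mt-Nd6 had values above 0 and mt-Nd2, mt-Nd4, mt-Cytb and mt-Co1 below 0.

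**Figure D4:**
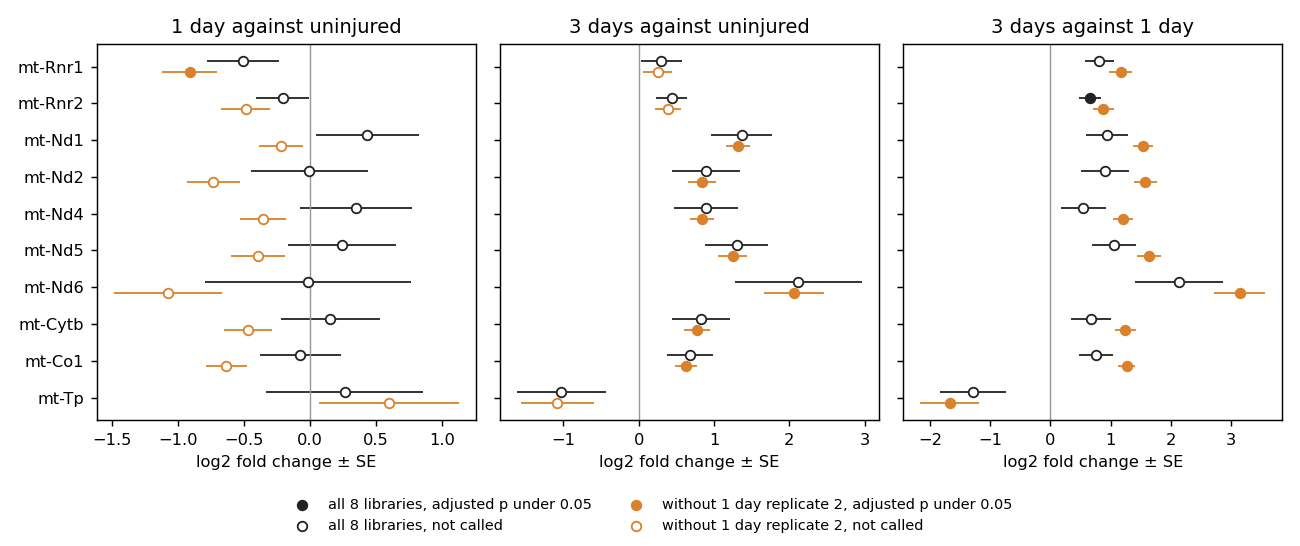
Log2 fold changes with standard errors (horizontal) of the 10 tested genes in the 3 comparisons, from all 8 libraries (black) and without 1 day replicate 2 (orange), with filled points for an adjusted p under 0.05. The 7 protein genes lie between 0.68 and 2.12 at 3 days against uninjured with all libraries, where none is called, and between 0.63 and 2.07 without 1 day replicate 2, where all 7 are. That library was singled out by its values in these same genes.

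At 1 day against uninjured no protein gene was called, with 1.77% of all genes called by edgeR (0.61% as higher, 1.16% as lower). None had an unadjusted p under 0.05, and DESeq2 and limma-voom called 0, with 5.38% and 2.02% of all genes called. The 7 log2 fold changes lay between -0.08 (mt-Co1) and 0.43 (mt-Nd1), 4 above 0 and 3 below, with a median of 0.15 beside 0.061 over all genes. Their direction depended on 1 library: without 1 day replicate 2 all 7 were below 0, from -0.22 for mt-Nd1 to -1.08 for mt-Nd6, none of them called.

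Between 1 and 3 days the 7 values were all above 0 (later minus earlier), with a median of 0.90 beside 0.022 over all genes. None was called by edgeR, 4 had an unadjusted p under 0.05, and DESeq2 called 3 and limma-voom 6, with 8.69% and 4.65% of all genes called higher. The highest was that of mt-Nd6 at 2.14 (SE 0.73, edgeR adjusted p = 0.134), followed by mt-Nd5 at 1.06 (SE 0.37, 0.108) and mt-Nd1 at 0.93 (SE 0.35, 0.129). For mt-Co1 the value was 0.76 (SE 0.27, edgeR adjusted p = 0.106). Without 1 day replicate 2 all 7 were called, from 1.20 for mt-Nd4 to 3.14 for mt-Nd6, where 6.73% of all genes were called higher. With any other single library at 1 or 3 days left out, 0 of the 7 were called.

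The make-up of the protein gene counts, which no scaling of libraries can move, also differed between groups. The share of mt-Nd1 among them was 10.9% and 12.8% without injury, 14.3%, 14.8% and 14.1% at 1 day, and 16.0%, 15.3% and 15.6% at 3 days. These 3 groups did not overlap, and 1 day replicate 2 sat with its group. The share of mt-Co1 was 39.0% and 40.6% without injury, 39.3%, 33.1% and 33.0% at 1 day, and 31.4%, 35.4% and 32.0% at 3 days. Both uninjured libraries were thus above all 3 libraries at 3 days. The share of mt-Nd5 was 17.1% and 14.2%, then 16.0%, 16.9% and 17.5%, then 20.4%, 18.2% and 20.5%, with the libraries at 3 days above all others. For mt-Nd4 the shares overlapped between all groups, from 10.2% to 13.7%. These shares were examined after their values were seen and were given no test.

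The light strand gene was measured against the heavy strand genes in each library. There were 10.3 and 8.92 mt-Nd6 counts per 1000 counts of the other protein genes without injury, 5.41, 10.5 and 7.27 at 1 day, and 20.9, 14.5 and 27.6 at 3 days. All libraries at 3 days were above all others, 1 day replicate 2 included. The difference in the mean log2 ratio was 1.09 for 3 days against uninjured (exact permutation p = 0.2, the smallest this design gives) and 1.45 for 3 days against 1 day (exact permutation p = 0.1, likewise the smallest). The adjusted p was 0.35 for both (permutation tests). With libraries scaled to the mitochondrially encoded protein counts, mt-Nd6 was called higher at 3 days than at 1 day, at 1.42 (SE 0.44, edgeR adjusted p = 0.0167, with 1.8% of all genes called higher), and not called against uninjured, at 1.11 (SE 0.50, edgeR adjusted p = 0.155).

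The rRNA genes had fewer counts per protein gene count after injury. The ratio was 5.39 and 5.51 without injury, 5.19, 3.19 and 4.35 at 1 day, and 2.80, 4.63 and 3.56 at 3 days. All 6 libraries after crush were below both uninjured ones, while the 2 times after crush overlapped. The mean log2 ratio differed by -0.39 at 1 day and by -0.60 at 3 days from uninjured (exact permutation p = 0.2 for each, the smallest this design gives, adjusted p = 0.35). Both comparisons share the uninjured libraries. Between the rRNA genes themselves, mt-Rnr1 had 0.992 and 1.11 counts per mt-Rnr2 count without injury, 0.858, 0.942 and 0.705 at 1 day, and 0.842, 1.16 and 0.856 at 3 days. All libraries at 1 day were below the uninjured ones, and those at 3 days were on both sides.

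**Figure D5:**
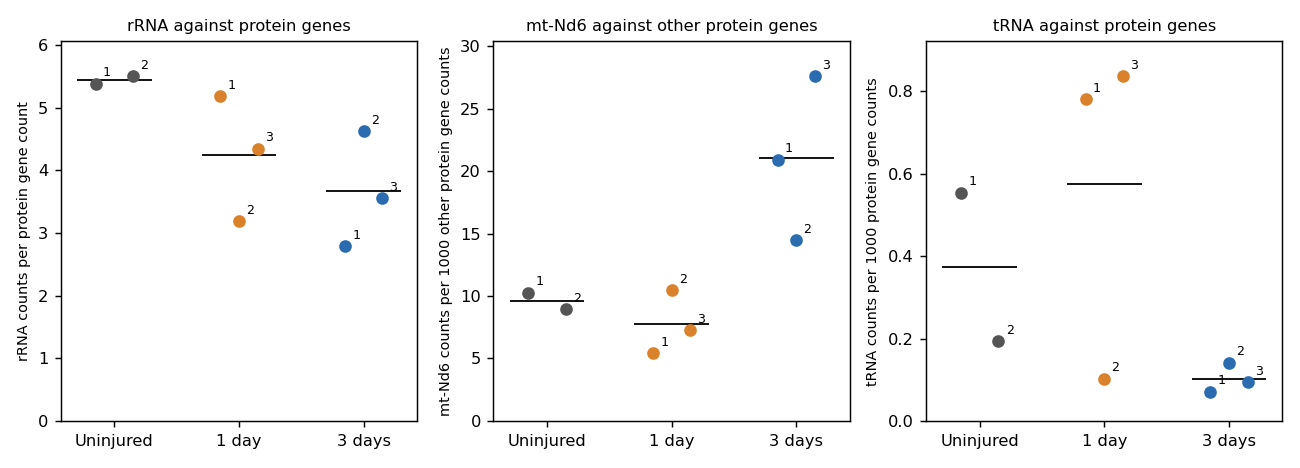
Ratios between classes of mitochondrially encoded genes in each library, numbered by replicate, with a line at each group's mean: rRNA counts per protein gene count (left), mt-Nd6 counts per 1000 other protein gene counts (middle) and tRNA counts per 1000 protein gene counts (right). The mt-Nd6 ratio was 14.5 to 27.6 at 3 days and 5.41 to 10.5 in the other libraries, while the tRNA ratio of 1 day replicate 2, at 0.103, lies with the libraries at 3 days.

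Of the tRNA genes, mt-Tp, the proline tRNA beside the control region, was the one with counts to compare. It was at 18.3 and 5.82 CPM without injury, at 17.0, 5.62 and 20.7 at 1 day, and at 3.92, 7.07 and 6.78 at 3 days. The high values, unlike those of the protein genes, were those of uninjured replicate 1 and of 1 day replicates 1 and 3, and the groups overlapped. Its log2 fold change was -1.29 (SE 0.54, edgeR adjusted p = 0.145) at 3 days against 1 day, and it was called at -1.67 without 1 day replicate 2 (edgeR adjusted p = 0.0345, with 6.92% of all genes called lower). Against uninjured it was -1.02 (SE 0.59) at 3 days and 0.26 (SE 0.59) at 1 day, neither called. The value at 3 days rested on uninjured replicate 1, without which it was 0.017. The 4 other tRNA genes, mt-Tl1, mt-Tn, mt-Tc and mt-Tt, had 5, 2, 8 and 6 counts over all libraries. The counts of all 5 came to 0.554 and 0.193 per 1000 protein gene counts without injury, 0.782, 0.103 and 0.838 at 1 day, and 0.0710, 0.142 and 0.0951 at 3 days.

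Some of the nuclear genes whose products join these in the respiratory chain and ATP synthase rose at 3 days. Of 73 such genes, all tested, 9 were called higher at 3 days against uninjured, or 12.3% of them beside 2.49% of all genes. In all, 68 had values above 0 and 5 did not, with a median log2 fold change of 0.91 beside -0.0016 over all genes. Between 1 and 3 days 29 were called higher, or 39.7% of them beside 5.24% of all genes, with a median of 0.89. For 1 day against uninjured none was called by edgeR, 1 by DESeq2 and 0 by limma-voom, 2 had an unadjusted p under 0.05, and the median was 0.078. None was called lower in any comparison. Without 1 day replicate 2 the counts were 20 and 34 in place of 9 and 29, or 27.4% and 46.6% beside 3.48% and 6.73% of all genes. The medians of the 7 mitochondrially encoded protein genes in the 2 comparisons were 0.90 and 0.90, and both comparisons share the libraries at 3 days.

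By complex, 3 of 37 complex I genes, 3 of 21 genes of complexes III and IV with cytochrome c, and 3 of 15 ATP synthase genes rose at 3 days against uninjured, beside the 2.49% of all genes called higher. In complex I these were Ndufa8, Ndufc1 and Ndufa4. Ndufa8 rose from 5.33 ± 0.694 CPM (SD, n = 2) to 22.9 ± 1.61 (n = 3), which is 2.10 on the log2 scale (SE 0.43, edgeR adjusted p = 0.0145). In complex IV, Cox6a1 rose from 21.7 ± 2.85 to 69.2 ± 8.30 CPM, by 1.67 (SE 0.28, edgeR adjusted p = 0.00396), and Cox8a also rose. Uqcrq of complex III rose by 1.97 (SE 0.49). In ATP synthase Atp5b, the catalytic beta subunit, rose from 245 ± 56.1 to 589 ± 158 CPM, by 1.26 (SE 0.22, edgeR adjusted p = 0.00523), with Atp5j2 and Atp5k. Against 1 day, where 5.24% of all genes were called higher, the counts were 9, 10 and 10, with Uqcrb of complex III at 1.99 (SE 0.33) and Cox6c of complex IV at 1.69 (SE 0.39).

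Of 17 nuclear genes that maintain and transcribe mitochondrial DNA, none was called by edgeR in any comparison, where 1.77%, 3.47% and 11% of all genes were. The difference from the respiratory chain genes was not tested. There was an unadjusted p under 0.05 for 0, 0 and 1 of them at 1 day against uninjured, 3 days against uninjured and 3 days against 1 day. DESeq2 called 0, 0 and 1 and limma-voom 0 in each. Their median log2 fold change at 3 days against uninjured was 0.036. Of 32 genes that process, modify or degrade mitochondrial RNA, Rexo2, an oligoribonuclease, and Slirp, which binds mitochondrial messenger RNA, rose at 3 days against 1 day, by 1.36 (SE 0.31) and 1.57 (SE 0.47). These 2 of 32 are near the 5.24% of all genes called higher, and none was called against uninjured by edgeR (4 at an unadjusted p under 0.05 at 3 days), DESeq2 or limma-voom.

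Of 79 mitochondrial ribosomal protein genes, none was called at 3 days against uninjured, with a median of 0.74 and 18 at an unadjusted p under 0.05 by edgeR (8 called by DESeq2, 0 by limma-voom). Against 1 day 4 rose, a share near the 5.24% of all genes, Mrps12 among them from 1.24 ± 0.393 to 8.77 ± 2.60 CPM (n = 3 each), and Mrps6 fell, by 1.60 on the log2 scale (SE 0.46, edgeR adjusted p = 0.0371, with 5.75% of all genes called lower). Of 34 genes for mitochondrial tRNA synthetases and translation factors, only Gfm2, which recycles ribosomes, was called by edgeR. It fell by 0.92 on the log2 scale at 3 days against 1 day (SE 0.16), where 5.75% of all genes were called lower. In that comparison 9 of the 34 had an unadjusted p under 0.05 by edgeR. DESeq2 called 8 there and limma-voom 1, with 17.4% and 9.7% of all genes called. At 3 days against uninjured the 3 numbers were 4, 3 and 1, where DESeq2 and limma-voom called 9.9% and 4.63% of all genes.

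Of 18 tested genes of mitochondrial stress, Ddit3, Hspe1 and Hspd1 fell at 3 days against uninjured, where 0.983% of all genes were called lower. Trib3, named after its values were seen, was the 1 gene of the 18 called higher, beside 2.49% of all genes. Ddit3, a transcription factor of the stress response, went from 85.0 ± 4.82 CPM (n = 2) to 44.2 ± 5.44 (n = 3), which is -0.94 on the log2 scale (SE 0.21, edgeR adjusted p = 0.0204). The mitochondrial chaperonin genes Hspe1 and Hspd1 changed by -1.43 (SE 0.32) and -0.76 (SE 0.18). At 3 days against 1 day Ddit3 and Hspe1 were called lower, at -1.44 (SE 0.19) and -1.22 (SE 0.29), and no gene of this list higher. In that comparison 5.75% of all genes were called lower. Of 23 genes of mitophagy and organelle turnover, Optn, a receptor for damaged mitochondria, and Tax1bp1 fell at 3 days against 1 day, by 1.24 (SE 0.19) and 0.54 (SE 0.16) on the log2 scale, where 5.75% of all genes were called lower.

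Ppargc1a, a coactivator of mitochondrial gene programmes, was called lower at 1 day than without injury, at -3.86 (SE 0.72, edgeR adjusted p = 0.0140), and higher at 3 days than at 1 day, at 3.63 (SE 0.68). It was at 22.3 ± 19.5 CPM without injury (n = 2), 1.51 ± 0.829 at 1 day and 19.0 ± 14.0 at 3 days (n = 3 each). The choroid plexus markers moved in the same way. EdgeR called 4 of 8 lower at 1 day (1.16% of all genes) and 6 of 8 higher at 3 days against 1 day (5.24% of all genes). Without 1 day replicate 2 these were 0 and 4 (1.05% and 6.73% of all genes). In both comparisons DESeq2 called all 8 (5.38% and 17.4% of all genes) and limma-voom 0 (2.02% and 9.7%). The part of these markers in the calls of Ppargc1a was not tested. The call at 1 day against uninjured was lost without uninjured replicate 1 (-2.49, edgeR adjusted p = 0.390), without 1 day replicate 1 (0.0743) or 1 day replicate 2 (0.0649), and with limma-voom (0.125).

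Of the 7 nuclear genes matched to a mitochondrially encoded gene above, 5 passed the filter and none was called by edgeR in any comparison. Of these 5, Gm29216 and Gm10925 had an unadjusted p under 0.05 at 3 days against uninjured, and Gm29216 at 3 days against 1 day. Gm29216, which shares the stretch with mt-Co1, had 48 and 64 counts without injury, 42, 98 and 39 at 1 day, and 175, 102 and 181 at 3 days. These 3 were the highest, and 1 day replicate 2 was the highest of its group, as for mt-Co1. Its log2 fold change at 3 days against uninjured was 1.93 (SE 0.64, edgeR adjusted p = 0.129). Adding the counts of these nuclear genes to the protein gene counts left the direction of all 21 differences in shares and ratios as it was, and the tests of single genes were not repeated with them added.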

How the data were processed

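RNA-seq of 8 libraries was used. The values deposited by the authors are raw read counts for each Ensembl gene and library. FastQC, STAR, HTSeq and the build mm9 are named in the submitters' processing notes. Tool versions, gene annotation, strand setting and the treatment of reads with several matches were not given in the sources used here. Symbols, lengths and sequences came from GENCODE M21 (GRCm38), so no coordinates are given, and 25925 of 26062 identifiers matched a symbol (the others took 0.127% of the counts). Libraries held 12700098 to 17994861 counts. No 2 libraries of a group agreed within sampling noise (chi-square per degree of freedom 31.4 to 64.8).

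The test was edgeR's quasi-likelihood F-test (edgeR 4.0.16, R 4.3.3) after filterByExpr, which left 17390 genes, and TMM scaling. The fit was robust, with a mean for each group and Benjamini-Hochberg adjustment over all tested genes, called at an adjusted p under 0.05. Standard errors are the log2 fold change divided by the square root of F. The biological coefficient of variation was 51.1%. On simulated counts of 17390 genes with 200 changed, 4-fold changes were recovered for 52%, 39% and 49% of genes and 2-fold changes for 16%, 16% and 14% (1 day against uninjured, 3 days against uninjured, 3 days against 1 day). In the same order 8.11%, 6.78% and 7.35% of 74, 59 and 68 simulated calls were false, each above the threshold of 0.05. That threshold is for the average over many runs. A single run for each comparison cannot tell whether it was exceeded on average. Shares and ratios were compared by exact permutation tests over libraries. Alternatives were other scalings and filters, DESeq2 1.42.0, limma-voom (limma 3.58.1), 2-group fits, a replicate block and leaving out each library.

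Named are all protein and rRNA genes with a row, tRNA genes whose mean reached 5 CPM in a group, up to 3 called genes per nuclear list and comparison with the smallest p, and nuclear genes near-identical to a member. The members and lists were chosen with earlier results of these data known.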

Additional observations from a re-analysis of the deposited data

How the results depend on the processing

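With all libraries, the 3 comparisons are given in the order 1 day against uninjured, 3 days against uninjured and 3 days against 1 day, and edgeR called 308, 604 and 1912 genes, 1, 13 and 42 genes of the nuclear lists, 0, 0 and 0 mitochondrially encoded protein genes and 0, 0 and 1 rRNA genes. The depth and the number of libraries limit these counts, and the cause of the differences between settings was not tested. At 1 day against uninjured, scaling to the mitochondrially encoded protein counts called 101 genes, the 2-group fit 110 and DESeq2 909, while the nuclear lists had 3 calls with DESeq2 and 0 with limma-voom. The value of mt-Cytb there was -0.0048 with library size scaling and -0.014 with limma-voom. At 3 days against uninjured, protein genes called numbered 1 with library size scaling, 7 in the 2-group fit, 1 with DESeq2 and 3 with limma-voom. Genes called numbered 88 with scaling to mitochondrially encoded protein counts, 1345 in the 2-group fit and 1375 with DESeq2. Nuclear list calls numbered 8 with library size scaling, 1 with scaling to mitochondrially encoded protein counts, 23 with the stricter filter, 46 in the 2-group fit, 41 with DESeq2 and 22 with limma-voom. At 3 days against 1 day, protein genes called numbered 3 with library size scaling, 1 with scaling to mitochondrially encoded protein counts, 1 with the stricter filter, 3 with DESeq2 and 6 with limma-voom. The rRNA genes called numbered 2 with library size scaling, scaling without mitochondrially encoded genes, the stricter filter, DESeq2 and limma-voom, and 0 with scaling to mitochondrially encoded protein counts and with no filter. Scaling to those counts also called 1 tRNA gene and 4530 genes in all (1.8% of genes higher, 24.2% lower), and DESeq2 called 3120 genes and 67 of the nuclear lists. By its construction that scaling turned the sign of mt-Rnr1 (-0.63), mt-Rnr2 (-0.51), mt-Nd2 (-0.068), mt-Co1 (-0.27), mt-Nd4 (-0.057) and mt-Cytb (-0.14) at 3 days against uninjured, and of mt-Rnr1 (-0.086), mt-Rnr2 (-0.32), mt-Co1 (-0.094), mt-Nd4 (-0.23) and mt-Cytb (-0.15) at 3 days against 1 day. It moved the median of all genes by 0.11, -0.93 and -1.04, library size scaling by -0.12 and -0.15 in the comparisons with uninjured libraries. Correlations of the deviations from group means were -0.0600 to 0.0906 over 7 same-numbered pairs, and -0.0906 to 0.0487 over 14 other pairs. The 2 uninjured libraries deviate from their mean by equal and opposite amounts, so these correlations are not independent. They cannot settle whether the numbers pair libraries. A fit with the replicate block gave 8 nuclear list calls at 3 days against uninjured and 2 rRNA genes at 3 days against 1 day.

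Leaving out each library in turn gave 39 to 368, 108 to 982 and 747 to 2362 genes called and 0 to 2, 1 to 27 and 7 to 55 nuclear list calls. Protein genes called ranged from 0 to 7 in both comparisons of 3 days, rRNA genes from 0 to 1 at 1 day against uninjured and from 0 to 2 at 3 days against 1 day, and tRNA genes from 0 to 1 at 3 days against 1 day. At 1 day against uninjured the log2 fold changes ranged from -0.22 to 0.69 for mt-Nd1, -0.73 to 0.25 for mt-Nd2, -0.63 to 0.14 for mt-Co1, -0.36 to 0.65 for mt-Nd4, -0.39 to 0.50 for mt-Nd5, -1.08 to 0.36 for mt-Nd6, -0.47 to 0.44 for mt-Cytb and -0.34 to 1.31 for mt-Tp. That of mt-Tp at 3 days against uninjured ranged from -1.63 to 0.017. At 1 day against uninjured the difference in share ranged from -0.999 to 0.515 percentage points for protein genes and from -0.000475 to 0.000848 for tRNA genes, and the log2 ratio of tRNA to protein counts from -0.447 to 1.31. Where an arm was left with 1 library, it is assumed to vary like the other groups. The ratio without the top member could not be given for tRNA genes, since some libraries have no other tRNA count.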
